A study of Mus musculus with 44 samples.

Results

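The genes described here are the 3 peroxisome proliferator-activated receptors (Ppara, Ppard and Pparg), the 3 retinoid X receptors with which they pair (Rxra, Rxrb and Rxrg), the coactivators Ppargc1a and Ppargc1b, and the corepressor Ncor1. They were found by gene symbol. All 9 are among the 22674 genes listed for the maturation window, and 8 of them are among the 18274 genes listed for the ovulation window, where Rxrg has no entry and was not analysed. mRNA was sequenced from wild-type ovarian follicles of outbred CD-1 mice in 44 libraries. In the maturation window, 11 control libraries had received the solvent DMSO and 10 had received PFNA (perfluorononanoic acid, a long-chain per- and polyfluoroalkyl substance). In the ovulation window all libraries had received hCG (human chorionic gonadotropin, which acts on the luteinizing hormone receptor and triggers ovulation), 12 alone as controls and 11 together with PFNA. No dose, duration, animal age or number of follicles in a library is given in the labels, and nothing there says which libraries came from separate animals, so p-values measure the spread between these libraries.

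The PPARs are nuclear receptors that bind fatty acids and their derivatives, and several perfluorinated acids are known activators of PPARα. Each PPAR binds DNA as a heterodimer with an RXR, on response elements built from repeats of the half-site AGGTCA. Without ligand the pair can hold corepressor complexes that contain NCOR1, and with ligand it recruits coactivators, among them the PGC-1 proteins encoded by Ppargc1a and Ppargc1b. In the ovary PPARγ is found mainly in granulosa cells, and its transcript is known to fall after the luteinizing hormone surge in rodents. The question here was whether PFNA moved the transcripts of the receptors, their partners and their cofactors, and whether it did so alike in both windows.

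Sequence upstream of annotated starts is shown for Pparg, Rxra and Ppara, the receptors whose transcripts passed the test in either window. For Pparg and Rxra only the windows that hold the half-site searched for are printed, and the window of the third Pparg start and that of the upstream Rxra start, which hold 0, are left out. RefSeq (GRCm38.p6) gave 14 windows of 250 bases for 8 of the 9 genes. The half-site AGGTCA was searched on both strands, and capitals mark it below. It was found in 4 of the 14 windows, among them those before the first and the middle of the 3 annotated starts of Pparg, 28 and 9 bases before the start, and the window before the downstream start of Rxra, where the half-sites lie 48 and 87 bases before the start. Of all 32817 windows of this length, 14.0% hold AGGTCA. The direct repeat with a spacer of 1 base, AGGTCANAGGTCA, was in 0 of the 14 windows and in 0.0335% of all windows. The GC box GGGCGG was in 8 of the 14 and in 32.7% of all windows. The windows printed are chr6:115360894-115361143 and chr6:115362099-115362348 for Pparg, chr2:27709042-27709291 for Rxra and chr15:85735526-85735775 for Ppara, all on the plus strand.
Pparg, first start: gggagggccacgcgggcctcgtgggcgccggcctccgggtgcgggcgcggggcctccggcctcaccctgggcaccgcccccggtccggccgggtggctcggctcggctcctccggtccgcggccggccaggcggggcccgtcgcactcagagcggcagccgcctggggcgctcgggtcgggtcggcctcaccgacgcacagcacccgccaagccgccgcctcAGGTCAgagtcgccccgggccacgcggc
Pparg, middle start: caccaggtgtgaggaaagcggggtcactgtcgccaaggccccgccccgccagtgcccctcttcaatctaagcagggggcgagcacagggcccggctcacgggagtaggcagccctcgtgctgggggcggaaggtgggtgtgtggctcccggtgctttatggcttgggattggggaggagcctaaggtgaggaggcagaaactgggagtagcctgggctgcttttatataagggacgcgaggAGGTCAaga
Rxra, downstream start: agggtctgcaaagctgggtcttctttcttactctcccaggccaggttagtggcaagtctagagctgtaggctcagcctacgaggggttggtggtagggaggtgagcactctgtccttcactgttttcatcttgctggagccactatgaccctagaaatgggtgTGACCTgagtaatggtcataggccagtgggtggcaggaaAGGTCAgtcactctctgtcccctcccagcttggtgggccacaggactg
Ppara, single start: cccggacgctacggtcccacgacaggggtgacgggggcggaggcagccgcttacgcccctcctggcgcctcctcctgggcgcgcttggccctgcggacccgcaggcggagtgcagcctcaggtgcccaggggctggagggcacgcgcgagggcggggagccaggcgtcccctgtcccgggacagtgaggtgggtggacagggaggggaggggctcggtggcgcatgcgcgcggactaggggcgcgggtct
The Ppara window holds no AGGTCA and 2 copies of GGGCGG. A match is a stretch of letters and not a measured binding site.

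The depth and the makeup of the libraries bear on what follows. The deposited maturation values are TPM, and the divisor was found to be the genomic span of each gene, introns included, so that whole reads could be recovered from them. The recovered totals ran from 15960085 to 25838479 reads in controls and from 15123820 to 20866651 with PFNA. Totals of the ovulation window were 11961105 to 16045751 in controls and 10600931 to 19511531 with PFNA. Maturation PFNA replicates 1 and 2 stood apart from the other PFNA libraries: on the first principal component, with 28.6% of the variance, they lay at -18.1 and -10.6, inside the range of the controls (-37.7 to -7.6), while the other 8 lay between 33.4 and 48.8. For Pparg, Ncor1 and Rxra, results of that window are therefore given with and without them, and most others only with them. Granulosa markers were abundant in all groups (summed levels of 13688 to 49163 CPM in the maturation and 16085 to 23418 CPM in the ovulation window), and oocyte markers were far lower in most maturation PFNA libraries than in controls.

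Levels of different genes were compared as CPM (reads of a gene scaled to one common library total, with TMM factors) per kilobase of exon, because a span-based TPM places genes with short introns too high. Pparg was the most abundant of the 9 transcripts in control follicles of both windows, at a median of 44.3 CPM per exonic kilobase in the maturation window (31 to 58.3, n = 11) and 53.4 in the ovulation window (35.7 to 107, n = 12). Its lowest control library lay above the highest control library of every other member in each window. In the maturation controls Rxrb (median 17.8), Ncor1 (17.3) and Rxra (12.7) followed, and neighbours in that order overlapped. In the ovulation controls Ncor1 (21.4) lay above Rxra (14.7) and Rxrb (13.4) with no overlap, and the ranges of the 2 receptors overlapped. Ppard came next in both windows, at medians of 3.97 and 3.77, and Ppara after it, at 1.57 and 1.31, each apart from its neighbours. Ppargc1b had medians of 0.296 and 0.471 and Ppargc1a of 0.109 and 0.0312. Rxrg had a median of 0. Rxra and Rxrb show how much the divisor matters: in TPM, Rxrb (span 6588 bases) had a control mean of 88 and Rxra (span 86518 bases) of 6.61, whereas in CPM of recovered reads the log2 ratio of Rxra to Rxrb was -0.02 ± 0.13 (SD, n = 11). With PFNA in the maturation window the order changed at its head, with Ncor1 (22.3), Rxrb (18.4) and Pparg (17.4) overlapping one another.

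**Figure D1:**
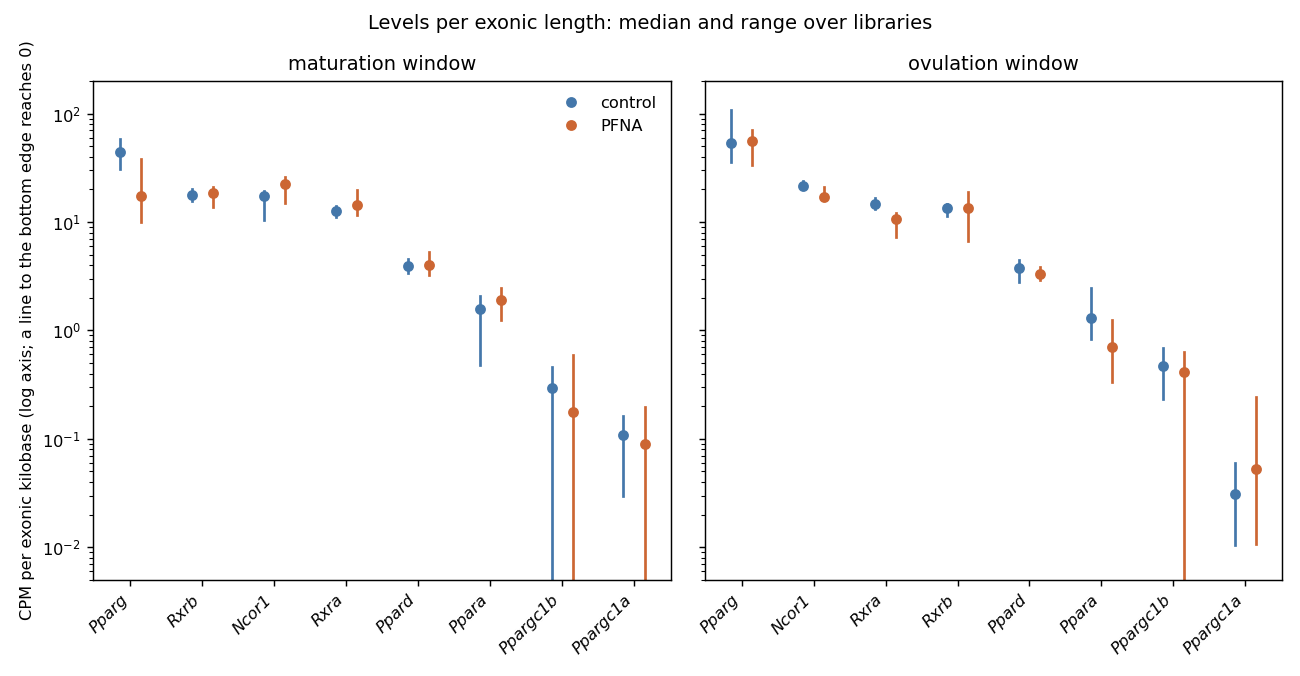
Median (point) and range over libraries (line) of each transcript in CPM per exonic kilobase on a log axis, for controls (blue) and PFNA (orange) in the maturation window (left, 11 and 10 libraries) and the ovulation window (right, 12 and 11 libraries). A line that meets the bottom edge reaches 0, and Rxrg is left out because its median is 0. Pparg leads in both control groups at medians of 44.3 and 53.4, and the PGC-1 genes lie below 1 in every library.

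In the maturation window Pparg was lower in PFNA follicles and Ncor1 higher, while Ppard and Rxrb did not pass the test. Of the 5 members tested by limma on log2(TPM + 1), 1 was higher and 1 lower at an adjusted p under 0.05, beside 29.4% of all 13712 genes tested (13.3% higher and 16.1% lower). The median log2 fold change of the 5 was 0.08, beside 0.02 over all genes. The other 4, Ppara, Rxrg, Ppargc1a and Ppargc1b, had means under 1 TPM and were left out of that fit. On recovered reads with edgeR, 2 of 8 members were higher and 1 lower, beside 32.6% of 14801 genes (16.0% higher and 16.6% lower). The third call was Rxra.

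Pparg (chromosome 6, 115360951 to 115490399, plus strand, GRCm38) encodes PPARγ, the receptor best known from fat cells. In controls it was measured at 6.31 TPM in the lowest library, 8.37 at the median and 10.2 in the highest. With PFNA it was measured at 1.96, 3.33 and 7.18 TPM. In 9 of 10 PFNA libraries it lay below every control, and the exception, PFNA replicate 1, lay inside the control range. Groups parted fully for 1.28% of all genes in TPM and for 1.34% in CPM of recovered reads, and for none of the members. The means were 8.17 ± 1.35 TPM (SD, n = 11) and 3.67 ± 1.59 TPM (SD, n = 10). The log2 fold change was -1.02 (SE 0.15, 95% interval -1.33 to -0.72, limma adjusted p = 3.2e-05). Adding 1 to each TPM before the logarithm makes the change of a low gene look smaller than it is. On recovered reads the medians were 131 CPM and 51.3 CPM, and Pparg was 2.26-fold lower (log2 fold change -1.18, SE 0.20, edgeR adjusted p = 0.00024). Without PFNA replicates 1 and 2 the log2 fold changes were -1.20 by limma (adjusted p = 5.1e-08) and -1.49 by edgeR (adjusted p = 2.1e-07), a fit in which 40.9% of 15002 genes were called (19.7% higher and 21.2% lower). In bulk follicles, fewer cells that express a gene and less RNA in each such cell cannot be told apart.

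Markers of other cell types differed between the groups of the maturation window. The summed level of 20 oocyte markers was 212 to 333 CPM in controls (median 271) and 11.6 to 433 CPM with PFNA (median 20.1). Of 18 oocyte markers tested by edgeR on recovered reads, 4 were lower and the others not called. Zp2, Zar1, Figla and Ddx4 had a median of 0 with PFNA. PFNA replicates 1 and 2 kept oocyte marker sums of 212 and 174 CPM, and their Pparg levels, 114 and 89.6 CPM, were the highest of the PFNA group. PFNA replicate 10 had the highest oocyte sum of all maturation libraries, 433 CPM, and the lowest Pparg, 29.5 CPM. That library also had the lowest granulosa marker sum of the window, 13688 CPM. Its theca and stroma sum (1631 CPM) and its macrophage and leukocyte sum (112 CPM) were the highest. With the oocyte marker level as a covariate the log2 fold change of Pparg was -0.81 by limma (adjusted p = 0.0371) and -0.83 by edgeR on recovered reads (adjusted p = 0.0998), so that edgeR no longer called it. This covariate itself differed between the groups, so these fits cannot fully tell its part from that of PFNA. The summed level of 10 granulosa markers had a median of 42772 CPM in controls (32547 to 49163) and of 30249 CPM with PFNA (13688 to 38697). Of these markers 7 were lower by edgeR on recovered reads. Theca and stroma markers had median sums of 593 and 794 CPM, and 3 of 10 tested were higher. Macrophage and leukocyte markers had 32.9 and 46.6 CPM, with 1 of 7 higher, and endothelial markers 110 and 150 CPM, with 0 of 6 called. In these 3 lists 0 markers were lower. Over all genes 16.0% were higher and 16.6% lower by edgeR on recovered reads. The part of granulosa, theca, leukocyte and endothelial content in the change of Pparg was not tested.

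**Figure D2:**
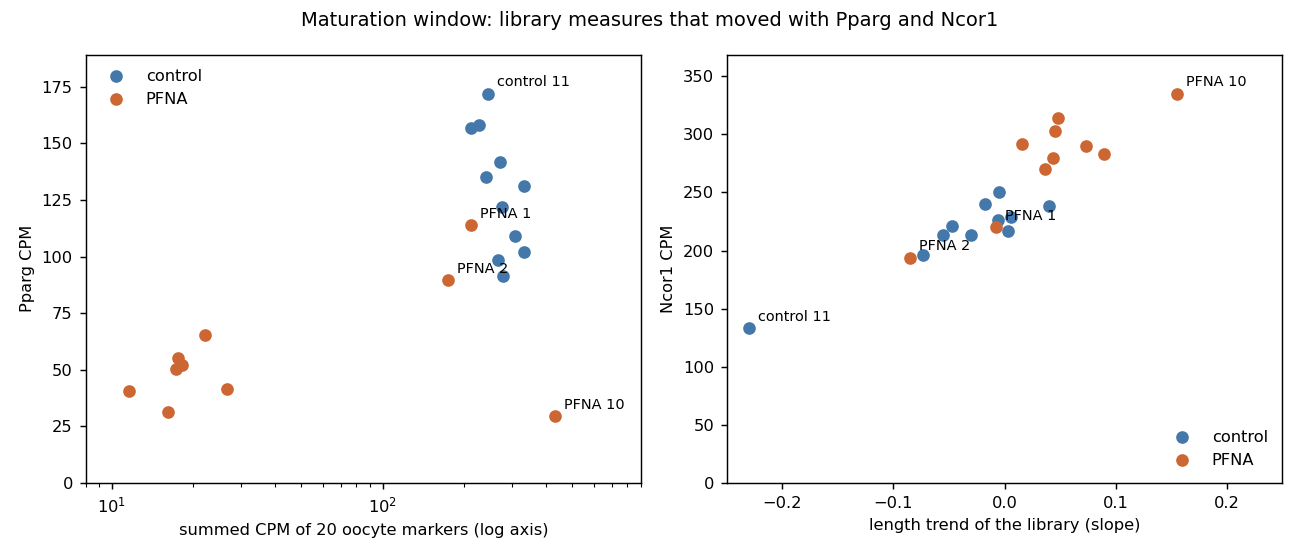
Pparg in CPM against the summed CPM of 20 oocyte markers on a log axis (left) and Ncor1 in CPM against the length trend of each library (right) in the 21 maturation libraries, controls in blue and PFNA in orange, with libraries named in the text labelled. PFNA replicates 1 and 2 lie beside the controls for both genes, and PFNA replicate 10 has the lowest Pparg at the highest oocyte sum.

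Ncor1 (chromosome 11, 62316426 to 62458541, minus strand) encodes the corepressor that unliganded nuclear receptors hold. In TPM its controls spanned 6.38 to 15 with a median of 13, and its PFNA libraries 10.8 to 23.5 with a median of 16.6. In 8 of 10 PFNA libraries it lay above every control, and the exceptions were PFNA replicates 1 and 2. The log2 fold change was 0.37 (SE 0.13, 95% interval 0.11 to 0.63, limma adjusted p = 0.032), and on recovered reads 0.36 (SE 0.0975, edgeR adjusted p = 0.0065). Without PFNA replicates 1 and 2 it was 0.48 by limma (adjusted p = 0.003) and 0.45 by edgeR (adjusted p = 0.00021). By limma the call was lost without PFNA replicate 6, 7 or 10, where the adjusted p rose to at most 0.0622. With the oocyte marker level as a covariate, which itself differed between the groups, Ncor1 was called by neither fit. Its log2 fold change was then 0.33 by limma (adjusted p = 0.304), beside 0.37 without the covariate. By edgeR on recovered reads it was 0.27 (adjusted p = 0.253), beside 0.36. Exons of Ncor1 overlap those of Pigl and Ttc19, and whether the counting used strand is not given in the sources used here.

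A trend with transcript length moved with Ncor1. The length trend of a library is the slope of its log2 CPM, relative to the mean of the window, on log2 exonic length. It ran from -0.230 to 0.040 in maturation controls (median -0.018) and from -0.085 to 0.155 with PFNA (median 0.045). Ncor1 has the longest exonic length of the 9 genes, 12811 bases. Control replicate 11 had the lowest slope and the lowest Ncor1 (133 CPM), and PFNA replicate 10 had the highest of both (335 CPM). With the slope as a covariate the log2 fold change of Ncor1 was 0.05 by limma (adjusted p = 0.688) and 0.11 by edgeR (adjusted p = 0.212). That of Pparg was -0.89 (limma adjusted p = 0.001) and -0.96 (edgeR adjusted p = 0.0035). The slope itself differed between the groups in its median. These and the other maturation fits with it as a covariate therefore cannot fully tell its part from that of PFNA. Among the genes whose levels most resembled Ncor1 over the 21 libraries, after centring on each group, was Sptan1 (Pearson correlation 0.97). Those most like Pparg were Tox2 (0.93) and Fam49b (0.90).

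Rxra (chromosome 2, 27676440 to 27762957, plus strand) and Rxrb (chromosome 17, 34031812 to 34038399, plus strand) encode RXR partners shared by many nuclear receptors. Rxra was measured at 5.49, 6.74 and 7.46 TPM in the lowest, median and highest control and at 5.76, 7.56 and 12.4 TPM with PFNA. The groups overlapped, with 5 of 10 PFNA libraries beyond the highest control. The log2 fold change of 0.22 (SE 0.0906) did not pass in limma (adjusted p = 0.071), whereas on recovered reads a log2 fold change of 0.23 (SE 0.0757) did (edgeR adjusted p = 0.0244). Without PFNA replicates 1 and 2 both fits called it, at 0.29 and 0.28 (limma adjusted p = 0.0145, edgeR adjusted p = 0.0032). With the length trend as a covariate neither did, at 0.07 and 0.14 (limma adjusted p = 0.639, edgeR adjusted p = 0.275), nor did either with the oocyte marker level, at 0.30 and 0.27 (limma adjusted p = 0.18, edgeR adjusted p = 0.141). Rxrb was measured at 77.4, 89.8 and 96.5 TPM in controls and at 80.1, 93.2 and 110 TPM with PFNA. Its log2 fold change was 0.08 (95% interval -0.04 to 0.20, limma adjusted p = 0.308).

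Ppard (chromosome 17, 28232700 to 28301474, plus strand) encodes the broadly expressed PPARδ. Its control libraries spanned 2.99 to 4.44 TPM (median 3.61) and its PFNA libraries 3.03 to 4.84 TPM (median 3.57). The log2 fold change was 0.02 (95% interval -0.14 to 0.19, limma adjusted p = 0.842). Set against Ppard within each library, Pparg had a log2 ratio of 0.98 ± 0.26 (SD, n = 11) without PFNA and of -0.07 ± 0.57 (SD, n = 10) with it. The difference of -1.05 passed the two-sided permutation test with 100000 resamples (adjusted p = 0.00054 over 6 ratios). The log2 ratio of Rxra to Rxrb differed by 0.14 between the groups (permutation adjusted p = 0.234).

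Ppara (chromosome 15, 85734983 to 85802819, plus strand) encodes PPARα, which drives fatty acid oxidation in liver. Its maturation values were 0.183, 0.754 and 1.05 TPM in controls and 0.564, 0.869 and 1.26 TPM with PFNA, and the groups overlapped. The difference in mean log2(TPM + 1) was 0.149 (two-sided permutation p = 0.0888, adjusted p = 0.222 over the 5 such tests of both windows). On recovered reads, with a median of 109 reads in controls, its log2 fold change was 0.30 (95% interval -0.09 to 0.70, edgeR adjusted p = 0.236). The 3 remaining members were at the limit of detection. Rxrg (chromosome 1, 167598384 to 167639623, plus strand), the RXR form of muscle and brain, had 0 reads in 9 of 11 controls and in 8 of 10 PFNA libraries, and 8 and 10 reads in all. Ppargc1a (chromosome 5, 51454250 to 51567726, minus strand) had a median of 13 reads in controls and 10 with PFNA. Ppargc1b (chromosome 18, 61298136 to 61400431, minus strand) had medians of 19 and 13.5 reads. Permutation adjusted p-values of these 3 were 0.691, 0.691 and 0.37. The edgeR log2 fold changes were -0.17 (95% interval -1.06 to 0.71) for Ppargc1a and -0.51 (-1.73 to 0.71) for Ppargc1b, intervals that reach past a 2-fold fall at this depth.

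**Figure D3:**
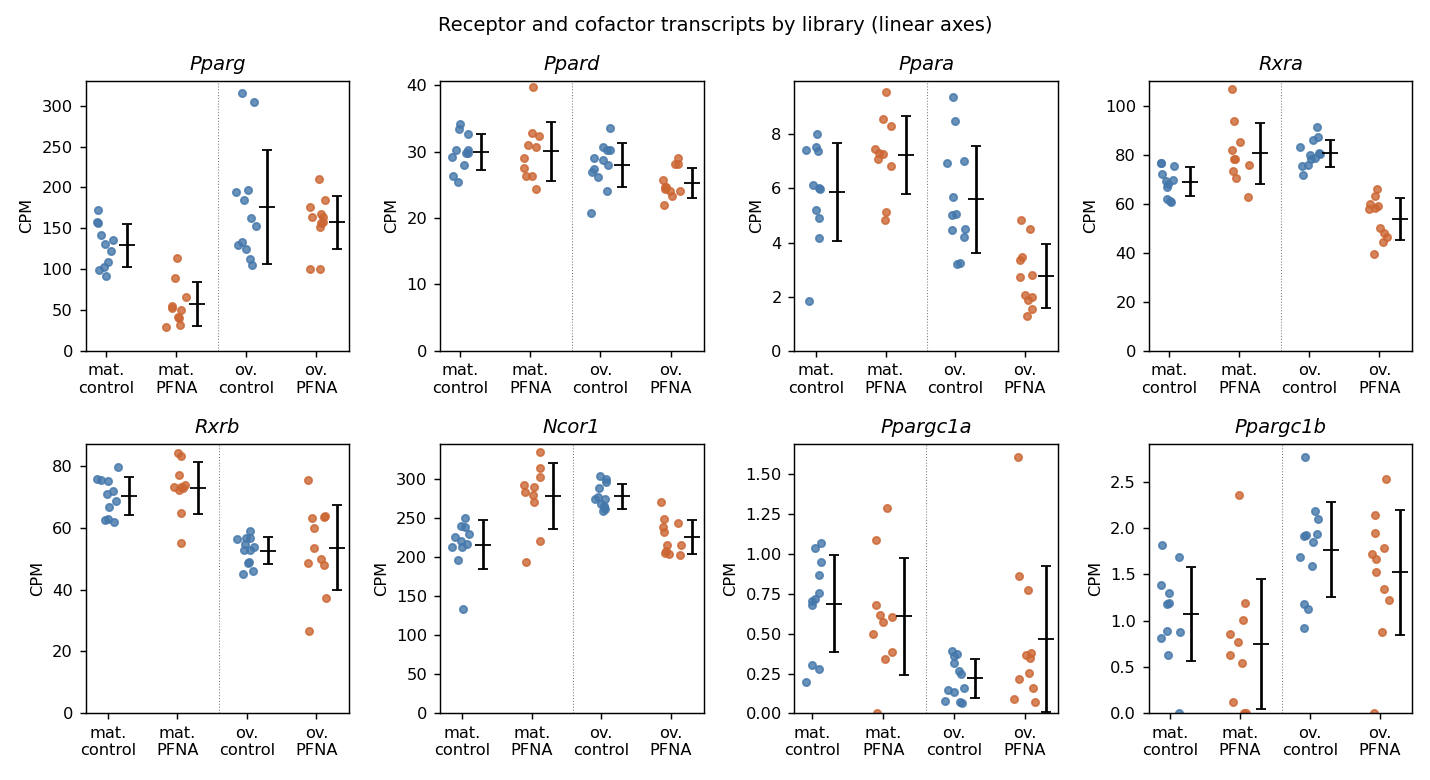
Each library's level of 8 transcripts in CPM on linear axes that start at 0, with the mean and SD of each group in black beside the points; mat. is the maturation window (11 controls in blue, 10 PFNA in orange) and ov. the ovulation window (12 and 11). Pparg parts the groups in the maturation window except for PFNA replicate 1, and Rxra parts them fully in the ovulation window (highest PFNA library 66, lowest control 71.9).

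In the ovulation window 3 other transcripts were lower with PFNA: Ppara at 0.495 of its control level, Rxra at 0.668 of its control level and Ncor1 at 0.814. Of 7 members tested by edgeR, 3 were lower and the other 4 not called, beside 73.2% of all 13441 genes tested (38.0% higher and 35.2% lower). The count of lower members is read against that background, in which a call was the usual outcome. The median log2 fold change of the 7 was -0.21, beside 0.04 over all genes.

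Ppara was measured at 3.21, 5.03 and 9.37 CPM in the lowest, median and highest control and at 1.28, 2.71 and 4.85 CPM with PFNA. In 7 of 11 PFNA libraries it lay below every control. The means were 5.6 ± 1.97 CPM (SD, n = 12) and 2.76 ± 1.18 CPM (SD, n = 11), and the log2 fold change was -1.01 (SE 0.23, 95% interval -1.49 to -0.54, edgeR adjusted p = 0.00037), a 2.02-fold lower level. These values rest on few reads, 45 to 136 in a control library and 20 to 92 in a PFNA library. Leaving out any of the 23 libraries kept the call, with log2 fold changes from -1.13 to -0.92.

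Rxra had controls at 71.9, 80.1 and 91.4 CPM and PFNA libraries at 39.6, 57.9 and 66 CPM. The groups did not overlap, which held for 26.0% of all genes tested in this window. The means were 80.9 ± 5.52 CPM (SD, n = 12) and 54 ± 8.57 CPM (SD, n = 11), with a log2 fold change of -0.58 (SE 0.0745, 95% interval -0.74 to -0.43, edgeR adjusted p = 1.3e-07). Rxrb was measured at 45, 53.3 and 58.8 CPM in controls and at 26.5, 53.5 and 75.5 CPM with PFNA. Its medians were nearly equal and its PFNA libraries spread wider, with 2 below and 5 above every control (log2 fold change 0.03, 95% interval -0.21 to 0.26, edgeR adjusted p = 0.841). The log2 ratio of Rxra to Rxrb fell from 0.61 ± 0.17 (SD, n = 12) to 0.04 ± 0.29 (SD, n = 11), a difference of -0.57 (permutation adjusted p = 0.00048).

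Ncor1 had controls at 259, 274 and 304 CPM and PFNA libraries at 203, 216 and 270 CPM. In 10 of 11 PFNA libraries it lay below every control. The log2 fold change was -0.30 (SE 0.0538, 95% interval -0.41 to -0.19, edgeR adjusted p = 2.3e-05). Length trends were narrower here, from -0.048 to 0.025 in controls and from -0.059 to 0.088 with PFNA, and with the trend as a covariate the log2 fold changes were -0.35 for Ncor1, -0.55 for Rxra and -1.04 for Ppara, all 3 still called (edgeR adjusted p = 1.1e-07, 2.8e-07 and 0.00046).

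Pparg was measured at 105, 158 and 316 CPM in ovulation controls and at 99.9, 164 and 210 CPM with PFNA, and the groups overlapped. Its log2 fold change was -0.17 (SE 0.17, 95% interval -0.53 to 0.19, edgeR adjusted p = 0.399), an interval that excludes a 2-fold fall. Ppard had controls at 20.8, 28.3 and 33.6 CPM and PFNA libraries at 21.9, 24.7 and 29.1 CPM (log2 fold change -0.15, 95% interval -0.30 to 0.00, edgeR adjusted p = 0.0708). It was called with no filter on low counts (-0.18, edgeR adjusted p = 0.0382) and without PFNA replicate 3, control replicate 9 or control replicate 10 (lowest edgeR adjusted p = 0.0184, without control replicate 10). The log2 ratio of Pparg to Ppard was 2.53 ± 0.54 (SD, n = 12) and 2.56 ± 0.32 (SD, n = 11), a difference of 0.03 (permutation adjusted p = 0.879). Ppargc1b had a median of 25.5 reads in controls and 26 with PFNA (log2 fold change -0.21, 95% interval -0.88 to 0.46, edgeR adjusted p = 0.572). Ppargc1a, with 35 reads over all 12 controls and 78 over the 11 PFNA libraries, was left out by the filter on low counts. Its difference in mean log2(CPM + 1) was 0.22 (permutation p = 0.0803, adjusted p = 0.222).

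Marker sums differed in this window too. Oocyte markers summed to 128 to 520 CPM in controls (median 156) and 31.8 to 677 CPM with PFNA (median 379), and 11 of 19 tested were higher. The granulosa sum had medians of 19113 and 19794 CPM, while 7 of its 10 genes were higher and 2 lower. Theca and stroma markers had median sums of 503 and 632 CPM, with 5 of 10 higher and 3 lower. Macrophage and leukocyte markers had 29.4 and 70.8 CPM, with 3 of 8 higher and 0 lower, and endothelial markers 95.6 and 164 CPM, with 5 of 6 higher and 0 lower. Over all genes of this window 38.0% were higher and 35.2% lower, so that the leukocyte share higher was near that of all genes. With the oocyte marker level as a covariate Ppara, Rxra and Ncor1 stayed lower, with effects of -1.11, -0.65 and -0.26 on the log2 scale (edgeR adjusted p = 0.0004, 6.6e-08 and 0.00022). The part of the other cell types was not tested. By group-centred correlation over the 23 libraries, Rxra was most like Rps28 (0.85) and Rpl37a (0.82), Ncor1 most like Smg1 (0.91) and Tbl1x (0.90), and Ppara most like Phf20 (0.73) and Tonsl (0.72). The correlations of Rxra were 0.56 and 0.49 in controls and 0.92 and 0.90 with PFNA. Unlike these members, Rps28, Rpl37a, Tbl1x and Tonsl were higher with PFNA (log2 fold changes 0.49, 0.43, 0.21 and 1.01). Smg1 (-0.23) and Phf20 (-0.34) were lower, like Ncor1 and Ppara.

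The PFNA effects differed between the windows for Pparg, Rxra and Ncor1. The windows share no libraries, and the difference was taken as the limma effect in the ovulation window minus that in the maturation window. It passed for 3 of the 5 members tested, with the ovulation effect the higher for 1 and the lower for 2, beside 67.7% of 11215 genes (32.0% and 35.6%). For Pparg the effects were -1.02 and -0.11, a difference of 0.92 (SE 0.23, limma adjusted p = 0.00043). For Rxra they were 0.22 and -0.59, a difference of -0.81 (SE 0.12, limma adjusted p = 8.9e-08). For Ncor1 they were 0.37 and -0.30, a difference of -0.67 (SE 0.14, limma adjusted p = 9.5e-05). Ppard (-0.16, 95% interval -0.37 to 0.05) and Rxrb (-0.10, 95% interval -0.37 to 0.17) did not pass. With recovered reads in the maturation window Ppara could be tested as well, and its effects of 0.30 and -0.82 differed by -1.12 (SE 0.24, limma adjusted p = 8.7e-05), beside 67.3% of 12813 genes called (34.4% with the ovulation effect the higher and 32.9% with it the lower). Window and control treatment differ together here, as DMSO controls belong to one window and hCG controls to the other, so they cannot be told apart.

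**Figure D4:**
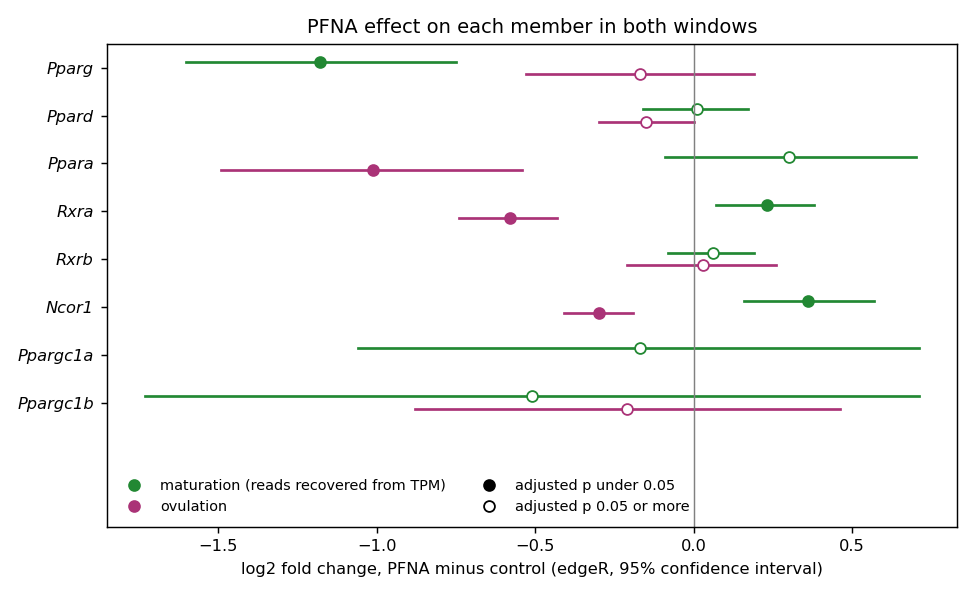
Log2 fold change of PFNA against control with its 95% interval by edgeR for each transcript, in the maturation window on recovered reads (green) and in the ovulation window (purple); filled points have an adjusted p under 0.05. Pparg is low in the maturation window, Ppara, Rxra and Ncor1 in the ovulation window, and the intervals of the PGC-1 genes are the widest.

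Transcripts of other proteins that work with the receptors moved in both directions. Among 20 other coregulators of nuclear receptors, 4 were higher and 1 lower of 19 tested in the maturation window (median log2 fold change 0.16) and 5 were higher and 13 lower of 20 in the ovulation window (median -0.34). Over all genes 13.3% were higher and 16.1% lower in the former and 38.0% and 35.2% in the latter. The share higher lay above that of all genes in the maturation window and under it in the ovulation window. For the share lower it was the reverse. On recovered reads the maturation counts were 6 higher and 3 lower of 20, beside 16.0% and 16.6% of all genes. Without PFNA replicates 1 and 2 they were 8 higher and 0 lower by limma. The shares over all genes in that fit are not given here. By edgeR on recovered reads, leaving out these 2 replicates raised the shares over all genes to 19.7% higher and 21.2% lower. With the length trend as a covariate the counts of this list were 0 higher and 2 lower, and with the oocyte covariate 0 in either direction. Both covariates also lowered the number of calls over all genes. Nrip1, a corepressor of nuclear receptors that is needed for ovulation in mice, was higher in both, from 41.4 ± 7.78 to 56.1 ± 7.5 TPM (SD, n = 11 and 10, limma adjusted p = 0.0043) and from 147 ± 11 to 256 ± 49.7 CPM (SD, n = 12 and 11, edgeR adjusted p = 6.7e-09). The deacetylase Sirt1 was higher in the maturation window (log2 fold change 0.29, limma adjusted p = 0.0051) and Gps2, a subunit of the NCOR1 complex, lower (-0.18, limma adjusted p = 0.0468, a call lost in 13 of 21 fits that left out 1 library). With the length trend as a covariate Nrip1 (0.20), Sirt1 (0.17) and Gps2 (-0.22) had limma adjusted p-values of 0.0962, 0.0953 and 0.053. Gps2 was higher in the ovulation window, from 23.5 ± 1.32 to 36.1 ± 6.49 CPM (edgeR adjusted p = 3.3e-07). The Mediator subunit Med1, which links PPARs to the transcription machinery, fell there from 76.6 ± 4.62 to 37.4 ± 7.17 CPM (SD, n = 12 and 11, edgeR adjusted p = 8.4e-11). All 11 PFNA libraries lay under the lowest control. The acetyltransferase Ep300 had a log2 fold change of -0.66, and its 11 PFNA libraries too lay under the lowest control.

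Of 13 other receptors that pair with RXR, 2 were higher and 1 lower of 6 tested in the maturation window and 2 were higher and 3 lower of 10 in the ovulation window. Over all genes 13.3% were higher and 16.1% lower in the former and 38.0% higher and 35.2% lower in the latter, so that the share lower was near that of all genes in the maturation window and both shares were under it in the ovulation window. The retinoic acid receptor Rarg rose from 6.95 ± 1.07 to 12.3 ± 2.94 TPM in the maturation window (limma adjusted p = 6.4e-05), a call kept with either covariate. Nr4a2, an orphan receptor, was higher in both windows (log2 fold changes 0.50 and 1.81, the former not called with the length trend, limma adjusted p = 0.118), and the liver X receptor Nr1h2 was lower in both (-0.19 and -0.41), the former also with either covariate. Rara fell from 32.3 ± 2.61 to 17.6 ± 3.65 CPM in the ovulation window (edgeR adjusted p = 8e-09), and the thyroid hormone receptor Thra was higher there (0.47). Of 16 transcription factors and kinases that work with PGC-1 proteins, 2 of 14 tested were higher in the maturation window by limma, Foxo1 (log2 fold change 0.31) and Mef2a (0.36), and 4 of 15 by edgeR on recovered reads, and the others were not called. Over all genes 13.3% were higher by limma, near the share of this list, and 16.0% by edgeR on recovered reads. With the length trend as a covariate Foxo1 (0.13) and Mef2a (0.15) were not called (limma adjusted p = 0.265 and 0.314). Of 15 tested in the ovulation window 7 were higher and 6 lower, beside 38.0% and 35.2% of all genes. A call was thus the usual outcome in that window. Foxo1, which restrains granulosa cell growth, rose there from 164 ± 56.7 to 649 ± 162 CPM (edgeR adjusted p = 5e-10) and Mef2c from 8.38 ± 2.87 to 34.5 ± 7.28 CPM (edgeR adjusted p = 2e-10). Nrf1 and Tfb2m, which serve mitochondrial gene expression, were lower at -0.95 and -0.55.

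Genes that supply the receptors with fatty acids gave 3 higher and 2 lower of 14 in the maturation window and 2 higher and 5 lower of 14 in the ovulation window. The shares lower lay near those over all genes (16.1% and 35.2%), and the share higher lay above that over all genes in the maturation window (13.3%) and under it in the ovulation window (38.0%). The lipases Pnpla2 and Lpl were higher in the maturation window (0.24 and 0.57), but not with the length trend as a covariate (limma adjusted p = 0.0986 and 0.206). Fabp5, a binding protein that delivers fatty acids to PPARδ, was lower there, from 272 ± 37.4 to 188 ± 55.1 TPM (limma adjusted p = 0.0022, and 0.0529 with the length trend), and higher in the ovulation window, from 48.8 ± 3.89 to 60.9 ± 8.21 CPM (edgeR adjusted p = 0.00016). Hormone-sensitive lipase, Lipe, fell in the ovulation window from 11.7 ± 2.07 to 2.35 ± 0.795 CPM (edgeR adjusted p = 4.1e-12). The acyl-CoA synthetase Acsl3 was lower in both windows (-0.22 and -0.91), and Fabp3 was higher in the ovulation window (1.65).

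Established PPAR targets were called higher more often than lower in both windows. In the maturation window 17 were higher and 1 lower of 29 tested (median log2 fold change 0.44, beside 0.02 over all genes). Over all genes 13.3% were higher and 16.1% lower in that fit. With the length trend as a covariate 15 were higher and 1 lower, with the oocyte covariate 10 were higher, and on recovered reads 16 were higher and 2 lower of 30 (median 0.28). On recovered reads 16.0% of all genes were higher and 16.6% lower, and both covariates lowered the number of calls over all genes. Of 31 tested in the ovulation window 23 were higher and 4 lower (median 0.77, beside 0.04). There 38.0% of all genes were higher and 35.2% lower, so that a call was the usual outcome. Angptl4, a secreted inhibitor of lipoprotein lipase, rose in the maturation window from 87 ± 12.7 to 354 ± 40.7 TPM, and Hadha, a subunit of the mitochondrial trifunctional protein, by a log2 fold change of 0.71. Ucp2 was lower there (-0.63). The thioesterase Acot2 rose in the ovulation window from 3.13 ± 1.18 to 111 ± 26.7 CPM (SD, n = 12 and 11, edgeR adjusted p = 1e-16), and Etfdh by a log2 fold change of 2.23. Cpt1a, the entry step of mitochondrial fatty acid oxidation, fell from 285 ± 38.6 to 104 ± 12.8 CPM (edgeR adjusted p = 2.1e-14).

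**Figure D5:**
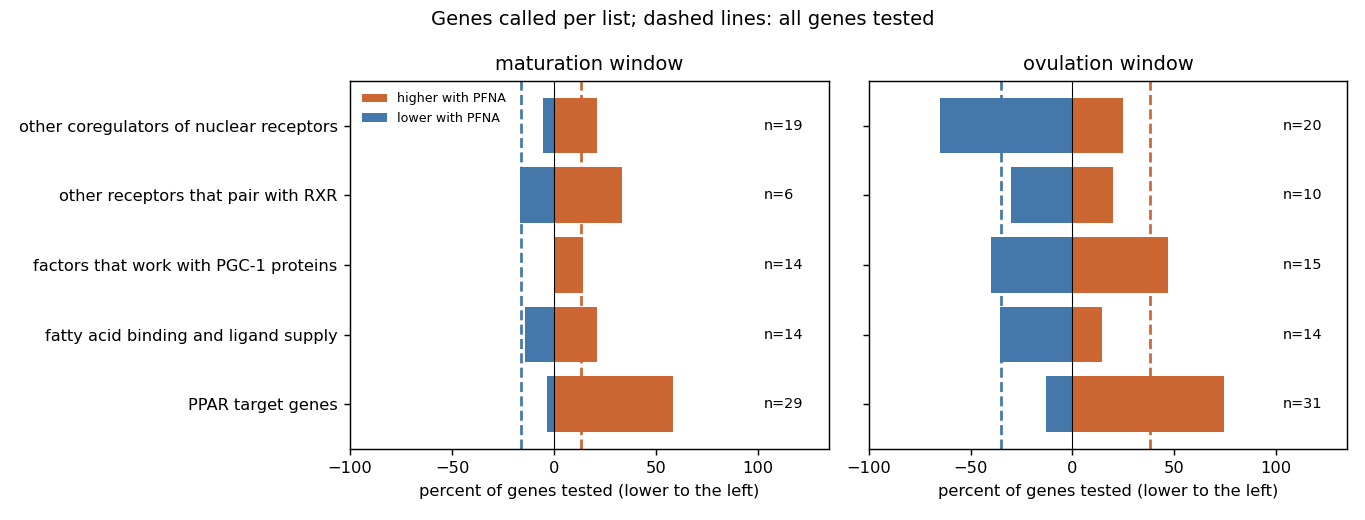
Share of the genes tested in each list that were called higher (orange, to the right) or lower (blue, to the left) with PFNA, by limma in the maturation window (left) and edgeR in the ovulation window (right), with the number tested beside each bar. Dashed lines give the same shares over all genes tested, 13.3% and 16.1% on the left and 38.0% and 35.2% on the right. The PPAR targets reach furthest to the right in both windows and the other coregulators furthest to the left in the ovulation window.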

How the data were processed

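For the maturation window the authors deposited TPM under the name of raw counts, as found from the values: each library sums to 1000000. The divisor was the genomic span, since over 9728 genes the log2 ratio of maturation to ovulation control means had a slope of -0.97 on log2 span and of -0.056 on log2 exonic length. TPM multiplied by span gave whole multiples of 1 read for 85.6% to 86.9% of values up to 100 reads per library (tolerance 0.02). For the ovulation window the authors deposited estimated counts, 18.5% of them not whole, which were rounded. Partek, Bowtie2 and HISAT2 are named in the submitters' processing notes. Roles, versions, build and strand use are not given in the sources used here.

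Maturation TPM were tested with limma 3.58.1 (trend, robust) on log2(TPM + 1) at a mean of at least 1 TPM, and ovulation counts with edgeR 4.0.16 (R 4.3.3, filterByExpr, TMM, quasi-likelihood). Each window was fitted within its own table, over all genes, with Benjamini-Hochberg adjustment and a threshold of 0.05. The difference between windows used limma effects with Satterthwaite's degrees of freedom. edgeR on recovered reads and the length trend as a covariate were chosen after seeing the data. Ratios and members under the filter had two-sided permutation tests with 100000 resamples. The functions for the limma and edgeR fits and for the difference between windows were tested on simulated data.

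The members and lists were chosen with earlier results of these data known. Named were all 9 members, per list and window the 2 higher and 2 lower genes with the smallest p among those called, and the 2 genes most like each member called. Not every gene the rule picks is reported here. Positions are from the maturation table (1-based). Their build is not given and was taken as GRCm38. The Rxrb start there, 34031812, directly follows the GRCm38.p6 window that ends at 34031811. Exonic lengths are from GENCODE M21. The maturation column CN6 was taken as control replicate 6, whose title differs by a letter. Control replicate 4 was not analysed here. Symbols that had become dates (24 in the maturation and 26 in the ovulation table) were not named. Replicate numbers did not pair the libraries: same-number correlations ran from -0.138 to 0.168 and from -0.193 to 0.073.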

Additional observations from a re-analysis of the deposited data

Results flagged for a closer look

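Among 27 measures of members searched for a library far from its group, 3 were found, where chance gives about 1.4 at 1 in 20 groups. Rxrg stood at 0.118 TPM in maturation PFNA replicate 7, which is 9 reads, while the next PFNA library stood at 0.0112 TPM. Ppargc1b stood at 0.197 TPM in maturation PFNA replicate 3, while the next stood at 0.0951 TPM. The log2 ratio of Rxra to Rxrb in TPM was -2.65 in maturation PFNA replicate 10, where the next highest was -3.28. That library also had the highest Rxra (12.4 TPM), the highest Ncor1, the highest length trend (0.155) and the lowest granulosa marker sum (13688 CPM) of the window. Without it the difference of this ratio between the groups went from 0.14 to 0.05.

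The PFNA effects in the ovulation and the maturation window differed, by limma over all genes, by 0.92 for Pparg (adjusted p = 0.00043), by -0.81 for Rxra (adjusted p = 8.9e-08) and by -0.67 for Ncor1 (adjusted p = 9.5e-05) on the log2 scale. The same test passed for 67.7% of 11215 genes, so that a difference between the windows was the usual outcome. Pparg was lower with PFNA in the maturation window, whereas Rxra and Ncor1 were lower in the ovulation window.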

How the results depend on the processing

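Pparg in the maturation window and Ppara, Rxra and Ncor1 in the ovulation window kept their direction in every alternative run. Their calls were kept too, except that Pparg on recovered reads with the oocyte marker level as a covariate had an edgeR adjusted p of 0.0998. A filter at a mean of 10 CPM left Ppara out and gives no value for it. The oocyte covariate moved the count of genes called in the maturation window from 4030 to 664 by limma and from 4830 to 865 by edgeR on recovered reads, and the length trend to 2540 and 2664; the cause was not tested. With the replicate block 2895 genes were called in the maturation and 9333 in the ovulation window. The numbers are shared only in name (0 of 9 and 0 of 11 libraries correlated best with their own number), and the block changed 1 member's call, Ncor1 in the maturation window (log2 fold change 0.26, limma adjusted p = 0.0915).

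Leaving out 1 library gave 3586 to 4588 genes in the maturation window by limma, 4377 to 5522 by edgeR on recovered reads and 9654 to 10029 in the ovulation window. The difference in the log2 ratio of Pparg to Ppard in the ovulation window then ran from -0.05 to 0.11, and it turned negative without control replicate 6 (-0.01), 7 (-0.05) or 12 (-0.02) or PFNA replicate 1 (-0.02).

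Signs turned only for effects that were not called. In the maturation window by limma, Ppard had -0.03 with the replicate block, -0.11 with the length trend and -0.01 to 0.05 over libraries left out, and Rxrb -0.02 with the oocyte covariate. On recovered reads, Ppard had -0.07 with the length trend, -0.06 with the oocyte covariate and -0.04 to 0.04 over libraries left out (-0.01 without PFNA replicate 10, control replicate 7 or control replicate 9, -0.04 without PFNA replicate 4 and -0.00 without PFNA replicate 9). Ppara had -0.07 with the length trend, Rxrb -0.10 with the oocyte covariate and Ppargc1a 0.07 without PFNA replicates 1 and 2. In the ovulation window Pparg had 0.05 with the oocyte covariate. Rxrb had -0.02 by limma, -0.00 with no filter, -0.11 with the oocyte covariate, -0.01 with the replicate block and -0.03 to 0.10 over libraries left out. Members at few reads (Rxrg, Ppargc1a and Ppargc1b) are limited by depth.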
